A study of Mus musculus with 42 samples.

Results

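At 4 days of postnatal life in room air, lungs of Nfe2l2 knockout pups were set against lungs of wild-type pups of the same age. The comparison uses 6 of the 42 arrays of a study of newborn mice: 3 knockout (KO, Nrf-/-) arrays and 3 wild-type (WT, Nrf+/+) arrays, picked by the sample titles that name genotype, day 3 and air. All 6 pups were at postnatal day 4 (P4), which the design counts as 3 days of age with P1 as the birthday, and had spent 3 days in cages in room air with foster dams. The other 36 arrays hold both genotypes in air at P1, P2 and P3 and in hyperoxia (95% oxygen or more) at P2, P3 and P4, with 3 pups in each of 14 groups. Each array carries RNA from the homogenized whole lung of 1 mouse. The strain, the litters and the form of the deleted allele were not found in the labels.

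Nfe2l2 encodes NRF2, a transcription factor that is held in the cytoplasm and sent for degradation by KEAP1 until oxidants or electrophiles modify KEAP1. Stabilised NRF2 pairs with small MAF proteins at antioxidant response elements and drives genes for glutathione synthesis and conjugation, quinone and aldehyde detoxification, NADPH supply and heme breakdown. In the newborn lung these enzymes meet the oxygen of the first breaths, while the airways and the future alveoli are still maturing.

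Values are log2 levels per gene, so that a difference of 1 is a 2-fold difference, and each gene stands for 1 probe set. Over all 45101 probe sets the 6 arrays had medians of 6.33 to 6.4. Their 10th percentile was 4.26 to 4.31, the region in which a gene reads near the bottom of the scale. Percentiles given below for single genes are ranks among the 18194 genes. WT replicate 3 stood apart: it correlated with the other 5 arrays across genes at r = 0.984 to 0.989, while the other arrays correlated with each other at 0.993 to 0.997 (genes are not independent replicates). Its liver list lay 4.2 log2 units above the list's mean over the 42 arrays and its heart muscle list 1.82 above, while WT replicate 1 lay 1.58 above for brown fat. KO replicate 2 had a median deviation of −0.085 from the KO means across genes. Eif2s3y, a gene of the Y chromosome, read 4.204, 4.02 and 4.18 in the KO arrays, against 4.42, 9.31 and 9.30 in the WT arrays, so the sexes of the pups were not balanced between the genotypes.

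Nfe2l2 itself read 4.85, 4.79 and 4.64 in the KO lungs, against 10.78, 10.85 and 10.79 in the WT lungs. The difference was −6.04 ± 0.18 (SE; limma adjusted p = 6.66e-22), and it is a minimum, since the KO level lay at percentile 13.1 of the genes. A dimmer probe set of the gene differed by −0.01 ± 0.24 and does not check the deletion. Nfe2l2 levels therefore matched the labelled genotype in all 6 arrays. Among the genes that regulate or partner NRF2, 9 others were measured and none was called. Keap1, the repressor, averaged 9.06 ± 0.15 in KO and 9.19 ± 0.04 in WT (SD, n = 3 each; limma adjusted p = 0.638).

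Across the genome 132 of 18194 genes (0.726%) differed between KO and WT at an adjusted p under 0.05, the rule by which a gene is called here. Of these, 54 (0.297%) were higher in KO and 78 (0.429%) were lower, so that 40.9% of the calls were higher. Loess scaling between arrays called 258 genes with 56.2% of them higher, so the balance of directions was not settled by these arrays. At least 2-fold differences were seen for 10 higher and 19 lower genes. The called genes had a median size of 0.587 log2 units and a smallest of 0.237. The KO and WT values did not overlap for any of the 132, but over all genes 3449 (19.0%) did not overlap, 6.10% higher and 12.9% lower in KO. Leaving out WT replicate 1, 2 or 3 gave 64, 66 or 61 called genes, and leaving out KO replicate 3 gave 84. Of the 132 genes, 38 were called in each of the 6 fits that left out 1 array. Without WT replicates 1 and 3, the arrays with transcripts of other organs, only 1 WT array is left. Calls from that fit are not counted here, since WT at P4 then has no replicate.

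**Figure D1:**
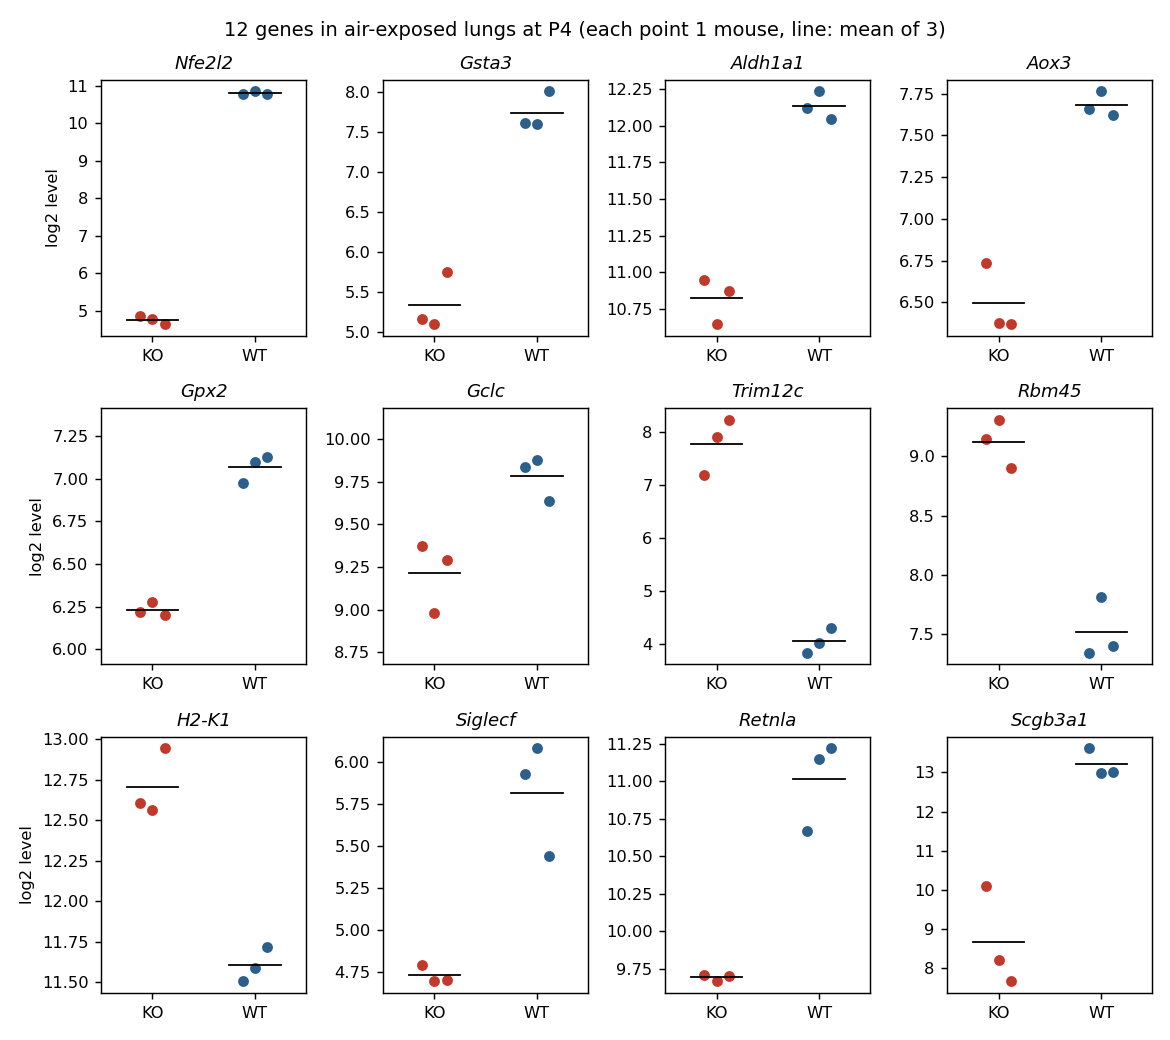
Log2 level (vertical axes, scaled per gene) of 12 genes in the air-exposed P4 lungs, with 1 point per mouse for KO (left, red) and WT (right, blue) and a line at the mean of 3. KO points lie below WT points for Nfe2l2, the detoxification genes, Siglecf, Retnla and Scgb3a1, and above them for Trim12c, Rbm45 and H2-K1, with no overlap in any panel. Scgb3a1 was not called at a limma adjusted p of 0.071, and 19.0% of all genes show no overlap.

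The antioxidant and detoxification enzymes formed 7 lists with 57 measured genes of 66. Of these, 9 fell in KO and none rose, against 0.429% and 0.297% of all genes. At an unadjusted p under 0.05 the count was 31 lower and 0 higher, where 7.24% and 4.28% of all genes passed. Of the 57 genes, 53 lay below 0, beside 10644 of 18194 genes. The lists' median difference was −0.248, beside −0.028 over all genes. With KO replicate 2 left out the median was −0.179, with 47 genes below 0. Between 5 and 9 of the genes were called when any 1 array was left out, and 6 with averaged probe sets. Without WT replicates 1 and 3, which leaves 1 WT array, the lists' median was −0.255. The lists were chosen with earlier results of these data known, so these counts describe them and test nothing.

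Glutathione transferases, which join glutathione to reactive compounds, gave the largest fall among the enzymes. Gsta3, an alpha-class transferase, read 5.16, 5.09 and 5.74 in the KO lungs, against 7.62, 7.60 and 8.01 in the WT lungs. The groups were far apart, with the highest KO value more than 1 unit under the lowest WT value. Its difference was −2.41 ± 0.29 (SE; 5.30-fold lower; limma adjusted p = 3.4e-06). A dimmer probe set differed by −0.44 ± 0.22. Gstm1, a mu-class transferase, read 9.86, 9.74 and 10.001 in KO and 10.52, 10.54 and 10.53 in WT. It fell by 0.66 on the log2 scale (SE 0.10; limma adjusted p = 0.00016), and 2 of its 3 other probe sets were also called. Mgst1 and Mgst3, transferases of membranes, differed by −0.53 ± 0.12 and −0.46 ± 0.11 (limma adjusted p = 0.02 and 0.041). Both lost their calls in 5 of the 6 fits that left out an array, at −0.49 to −0.56 for Mgst1 and −0.36 to −0.52 for Mgst3 (all but the fit without KO replicate 1). Both calls were also lost on a dimmer probe set and with averaged probe sets. Their smallest differences under any alternative were −0.049 for Mgst1 and −0.045 for Mgst3. The remaining 12 measured transferases were not called, and ranged from Gsto1 at −0.58 ± 0.32 to Gstt1 at 0.69 ± 0.42.

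Antioxidant response elements lie in many promoters of NRF2 targets, and the promoters of called enzymes are shown to let the element's core, TGACNNNGC, be read beside the falls. RefSeq lists 300 bases per promoter in the mouse build GRCm38.p6 (250 before the start and 50 after), and 8 of the 9 called enzymes had at least 1, Gclc being the exception. Where 2 were listed, as for Mgst1 and Aldh1a1, the one with more cores was taken, then the one of lower coordinate. Capitals mark the core on either strand, and each sequence is written 5′ to 3′ along its gene. The first 2 promoters hold the core and the others are the called enzymes with the largest falls that hold none.
Gsta3, chr1:21240335-21240634, plus strand: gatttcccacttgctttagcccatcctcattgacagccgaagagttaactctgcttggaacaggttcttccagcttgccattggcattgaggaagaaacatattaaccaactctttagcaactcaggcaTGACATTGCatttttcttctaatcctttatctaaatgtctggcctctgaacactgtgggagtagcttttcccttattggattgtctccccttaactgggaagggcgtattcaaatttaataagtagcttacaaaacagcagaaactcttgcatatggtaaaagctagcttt
Mgst1, chr6:138140277-138140576, plus strand: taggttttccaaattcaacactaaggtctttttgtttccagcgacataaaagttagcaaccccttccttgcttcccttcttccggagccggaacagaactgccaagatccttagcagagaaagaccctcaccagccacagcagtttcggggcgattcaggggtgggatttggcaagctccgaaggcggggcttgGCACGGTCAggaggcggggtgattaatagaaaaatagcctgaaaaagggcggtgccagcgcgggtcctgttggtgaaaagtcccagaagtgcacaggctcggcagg
Aldh1a1, chr19:20492333-20492632, plus strand: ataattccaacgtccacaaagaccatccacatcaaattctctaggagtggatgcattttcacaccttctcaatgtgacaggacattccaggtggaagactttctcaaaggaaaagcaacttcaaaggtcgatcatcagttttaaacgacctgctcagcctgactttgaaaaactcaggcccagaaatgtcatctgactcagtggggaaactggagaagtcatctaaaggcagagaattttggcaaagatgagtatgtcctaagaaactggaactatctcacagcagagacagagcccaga
Aox3, chr1:58112886-58113185, plus strand: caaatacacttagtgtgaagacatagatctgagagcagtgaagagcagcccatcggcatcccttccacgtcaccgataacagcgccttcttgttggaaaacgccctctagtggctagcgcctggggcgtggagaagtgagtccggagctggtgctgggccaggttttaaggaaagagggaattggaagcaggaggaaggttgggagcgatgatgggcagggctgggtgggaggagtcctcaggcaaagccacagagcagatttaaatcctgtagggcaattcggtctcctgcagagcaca
In Gsta3 the core began 121 bases before the start on the coding strand, and in Mgst1 it lay 56 bases before the start on the other strand. The core stood in 2 of the 8 promoters of called enzymes, in 14 of 69 promoters of genes that fell (20.3%), in 7 of 41 of genes that rose (17.1%) and in 2334 of 14453 measured genes with a promoter listed (16.1%). A match of these letters is a description and not a binding site, and its lack says nothing of sites elsewhere.

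Enzymes of aldehydes, quinones and epoxides included 3 called genes. Aldh1a1, which oxidises retinaldehyde and other aldehydes, read 10.95, 10.65 and 10.88 in KO, against 12.12, 12.23 and 12.05 in WT. The lowest WT value lay about 1 unit over the highest KO value. The difference was −1.31 ± 0.28 (SE; 2.48-fold lower; limma adjusted p = 0.0144). Its size stayed at −1.22 to −1.36 without KO replicate 2 or any 1 WT replicate, but the adjusted p was then 0.054 to 0.0855. The aldehyde oxidases Aox3 and Aox1, neighbouring molybdenum enzymes, held their calls in every fit that left out an array. Aox3 read 6.74, 6.38 and 6.37 in KO and 7.66, 7.76 and 7.62 in WT, a difference of −1.19 ± 0.17 (SE; limma adjusted p = 0.000104). Aox1 read 5.51, 5.56 and 5.997 in KO and 6.70, 6.95 and 6.76 in WT, a difference of −1.11 ± 0.18 (SE; limma adjusted p = 0.000561). Of the 15 measured genes of this list 10 were lower at an unadjusted p under 0.05, and all 15 lay below 0. Nqo1, the quinone reductase often used as the readout of NRF2, read 6.92, 6.64 and 6.72 in KO and 7.17, 7.21 and 7.10 in WT. Its difference of −0.40 ± 0.16 (SE) was not called (limma adjusted p = 0.314). The KO and WT values did not overlap, as for 12.9% of all genes in that direction.

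Glutathione synthesis gave 1 call among 6 measured genes. Gclc, the catalytic subunit of the rate-limiting ligase, read 9.37, 8.98 and 9.29 in KO and 9.83, 9.88 and 9.64 in WT, and fell by 0.57 on the log2 scale (SE 0.14; limma adjusted p = 0.0422). The call was lost when any array but KO replicate 1 was left out, with differences of −0.45 to −0.64. It was also lost with averaged probe sets, on a dimmer probe set and with only the arrays of the contrast in the fit. Gclm, the modifier subunit of the same enzyme, averaged 9.52 ± 0.20 in KO and 9.63 ± 0.16 in WT (SD, n = 3 each; limma adjusted p = 0.812), and its sign turned with array weights and on a dimmer probe set. Among glutathione peroxidases Gpx2, the form of epithelia, read 6.22, 6.28 and 6.198 in KO, against 6.97, 7.10 and 7.12 in WT. It fell by 0.83 on the log2 scale (SE 0.16; 1.78-fold lower; limma adjusted p = 0.00362), while the other 5 measured members lay between −0.32 and −0.02 and were not called.

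The other 3 enzyme lists held no called gene. NADPH supply had 5 of 5 measured genes lower at an unadjusted p under 0.05, from Me1, malic enzyme, at −0.35 ± 0.10 (limma adjusted p = 0.115) to Idh1 at −0.21 ± 0.08. Of the 4 thioredoxin genes Txnrd1, thioredoxin reductase, differed by −0.29 ± 0.09 (limma adjusted p = 0.155) and Srxn1, sulfiredoxin, by −0.19 ± 0.16. Of the 5 heme and iron genes Hmox1, heme oxygenase 1, averaged 8.01 ± 0.15 in KO and 8.36 ± 0.09 in WT (SD, n = 3 each; limma adjusted p = 0.267). KO replicate 2 had the lowest score of the 6 arrays in each of the 7 enzyme lists. Outside the lists Sod1, the cytosolic superoxide dismutase, was called at −0.36 ± 0.08 (SE; limma adjusted p = 0.016) and was chosen for mention after its value was seen. Its call was lost without KO replicate 2 or WT replicate 2 or 3 (−0.31 to −0.35).

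**Figure D2:**
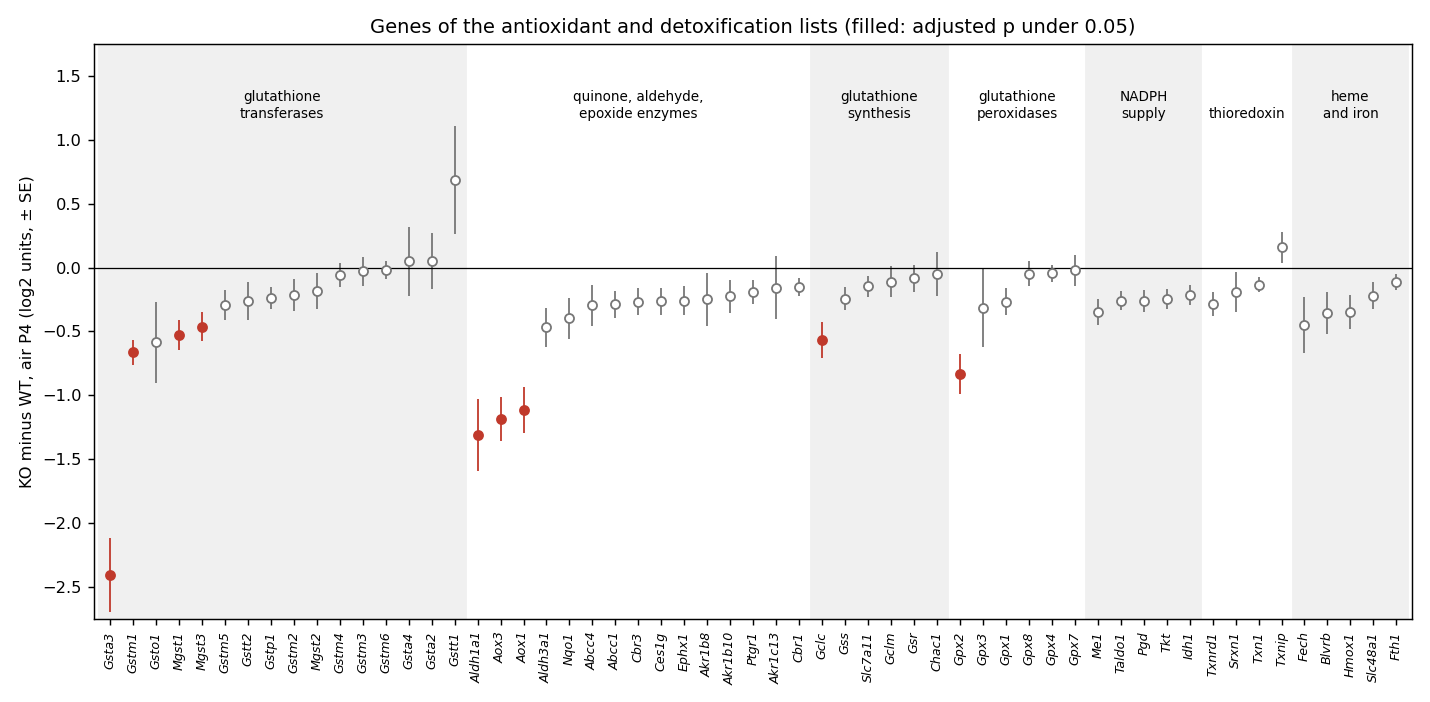
KO minus WT difference (vertical axis, log2 units, bars ± SE) of the 57 measured antioxidant and detoxification genes in air at P4, grouped by list and ordered by size within it. Filled red points are the 9 called genes, all below 0 and led by Gsta3 at −2.41. Open points were not called, and 4 of all 57 lie above 0.

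Among called genes outside the enzyme lists the largest fall after Nfe2l2 was that of Lypd6. This gene, for a membrane-anchored protein that modulates Wnt signalling, read 5.52, 5.80 and 5.53 in KO, against 7.84, 7.96 and 7.54 in WT. Its difference was −2.16 ± 0.20 (SE; 4.48-fold lower; limma adjusted p = 2.12e-08). C920006O11Rik, which has no proper gene name and was added after its values were seen, read 5.07, 4.92 and 5.19 in KO and 7.14, 7.14 and 6.995 in WT. Its difference was −2.03 ± 0.41 (SE; limma adjusted p = 0.00768), and its call held without each array in turn. Whether it holds without the transcripts of other organs was not settled, since 1 WT array is left without WT replicates 1 and 3. Hc, complement component C5, read 9.998, 9.76 and 9.78 in KO and 11.71, 11.81 and 11.50 in WT, a fall of 3.55-fold (limma adjusted p = 1.46e-06). Lypd6 and Hc kept their calls in every alternative fit, as did Aox3, Aox1, Trim5, H2-D1 and Lyve1, 7 of the 37 called genes followed through all alternatives. Clstn2, a calsyntenin of synapses, differed by −1.44 ± 0.30, and Ang3, an angiogenin-family ribonuclease, by −1.44 ± 0.30. Without WT replicate 1 or 2 the adjusted p rose to 0.0599 and 0.0782 for Clstn2, at −1.42 and −1.37. For Ang3 it rose to 0.0599 and 0.0706, at −1.39 and −1.37, and to 0.0541 without KO replicate 3. Lrg1, a leucine-rich glycoprotein of inflamed tissue and vessels, differed by −1.05 ± 0.26 and lost its call without any 1 of the 6 arrays (−1.03 to −1.07).

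Siglecf and Retnla, both expressed by macrophages, fell in the KO lungs. Siglecf, a lectin of alveolar macrophages and eosinophils, read 4.79, 4.70 and 4.70 in KO, near the bottom of the scale, against 5.93, 6.08 and 5.44 in WT. Its difference of −1.09 ± 0.21 (SE; limma adjusted p = 0.00493) is a minimum, since KO lay at percentile 12.5 of the genes. It was −0.96 without WT replicate 2, where the adjusted p was 0.0632. Retnla, a secreted product of alternatively activated macrophages and airway cells, read 9.71, 9.67 and 9.70 in KO and 10.67, 11.15 and 11.22 in WT, a difference of −1.32 ± 0.25 (SE; limma adjusted p = 0.0044). Of 15 measured macrophage genes 1 was called lower, Siglecf, and 8 were lower at an unadjusted p under 0.05, with a list median of −0.399. Over all genes 0.429% were called lower, 7.24% were lower at that p and the median was −0.028. Chil3, a chitinase-like protein, read 7.86, 8.54 and 8.06 in KO and 9.73, 9.52 and 9.22 in WT, and Marco, a scavenger receptor, 5.998, 6.18 and 6.42 in KO and 7.02, 6.73 and 7.55 in WT. The KO and WT values did not overlap for either, as for 12.9% of all genes in that direction, and neither was called (limma adjusted p = 0.137 and 0.203). The list's score, a mean over its genes, was −0.43, −0.49 and −0.45 in KO and 0.19, 0.02 and 0.14 in WT. In whole lung, fewer cells of a type and less RNA per cell cannot be told apart. Called genes known from immune cells went both ways outside the list. Clec4n, the lectin Dectin-2, differed by −0.80 ± 0.19, Ifi30, a lysosomal thiol reductase, by −0.36 ± 0.08 and Dock8, an activator of CDC42, by −0.61 ± 0.14. Sirpb1a, a receptor of myeloid cells, was higher by 0.96 ± 0.19 and Lyve1, found on some macrophages, by 0.88 ± 0.11. The 3 lower genes were chosen after their values were seen, and all lost their calls without KO replicate 2, WT replicate 1 or WT replicate 3, among others (−0.75 to −0.85 for Clec4n, −0.31 to −0.35 for Ifi30 and −0.50 to −0.66 for Dock8).

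Airway epithelium held lower values without calls. Scgb3a1, a secretoglobin of club cells, read 10.09, 8.22 and 7.67 in KO, against 13.61, 12.98 and 13.02 in WT. No KO value reached the WT range, as for 12.9% of all genes in that direction. The difference of −4.55 ± 1.22 (SE) missed the threshold (limma adjusted p = 0.0709). It was called with array weights, with dim genes left out and with only the 6 arrays in the fit. Reg3g, an antimicrobial lectin, read 6.80, 6.02 and 5.83 in KO and 10.56, 9.84 and 9.68 in WT (limma adjusted p = 0.259). Of 9 measured club cell genes 4 were lower at an unadjusted p under 0.05 and none was called, with a median of −0.467. Scgb1a1, the most abundant club cell product, differed by 0.01 ± 0.06. Of 10 ciliated cell genes 6 were lower at an unadjusted p under 0.05, none was called, and the median was −0.527. Over all genes 7.24% were lower at that p and the median was −0.028. Cfap126, a protein of motile cilia, averaged 8.80 ± 0.17 in KO and 9.43 ± 0.06 in WT (SD, n = 3 each; limma adjusted p = 0.183), but Foxj1, the master regulator of cilia, differed by −0.23 ± 0.26. The club score was −0.67, −1.06 and −1.12 in KO and 0.59, 0.40 and 0.28 in WT, and the ciliated score −0.36, −0.56 and −0.49 in KO and −0.06, 0.18 and −0.01 in WT.

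Lists of the gas-exchange surface, of vessels and of dividing cells showed no called gene. Alveolar type 2 cells gave a median of 0.028 over 14 genes, and type 1 cells 0.064 over 13. Sftpc, surfactant protein C, averaged 14.71 ± 0.04 in KO and 14.69 ± 0.03 in WT (SD, n = 3 each). Mitosis genes had a median of 0.024 over 21 measured and replication genes 0.095 over 20, and none of the 41 passed an unadjusted p of 0.05. Mki67, the proliferation marker Ki-67, differed by −0.15 ± 0.28. Of 14 endothelial genes 3 were higher at an unadjusted p under 0.05 (Pecam1, Eng and Tie1), with a median of 0.155. Elastin, Eln, differed by −0.06 ± 0.13, and its sign turned when probe sets were averaged, on a dimmer probe set and with scores of other organs as covariates. All 17 measured respiratory chain genes lay below 0 with a median of −0.220, of which 6 passed an unadjusted p of 0.05 and none was called. Over all genes 10644 of 18194 lay below 0 with a median of −0.028. At an unadjusted p under 0.05, 7.24% of all genes were lower and 4.28% higher. The respiratory chain score was −0.11, −0.26 and −0.09 in KO and 0.01, 0.00 and 0.24 in WT. The highest WT value is that of replicate 3, which also had the highest heart muscle and liver scores. Whether those tissues' transcripts set part of this difference was not tested for the list.

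**Figure D3:**
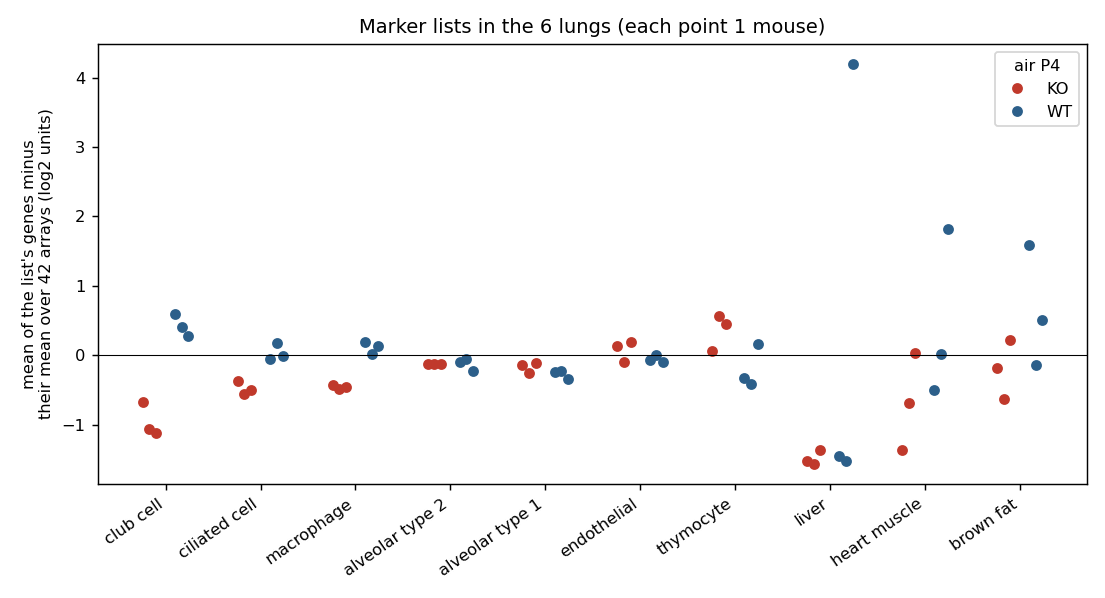
Mean deviation of each list's genes from their mean over the 42 arrays (vertical axis, log2 units) in the KO (left, red) and WT (right, blue) lungs, with 1 point per mouse. KO lies below WT in all 3 pups for club cell, ciliated cell and macrophage lists, alveolar lists overlap, and WT replicate 3 stands alone at 4.2 for liver and at 1.82 for heart muscle. Such separation is not particular to those lists. Among lists not shown, KO also lies below WT for fibroblast, B cell, heat shock, chaperone and respiratory chain genes, and above WT for elastic fibre and collagen genes.

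Among the genes that rose in KO, Trim12c led by far. This member of the TRIM5 cluster, whose human relative restricts retroviruses, read 7.19, 7.90 and 8.22 in KO, against 3.84, 4.03 and 4.31 in WT. WT lay at percentile 2.5 of the genes and KO at percentile 52.1. The rise of 3.71 ± 0.22 (SE; 13.1-fold; limma adjusted p = 2.82e-13) is a minimum, since WT read at the bottom of the scale. A dimmer probe set of the gene differed by 0.19 ± 0.14 and was not called. Rbm45, an RNA-binding protein, read 9.15, 9.31 and 8.90 in KO and 7.34, 7.81 and 7.40 in WT, and so rose 3.03-fold (1.60 ± 0.23 SE; limma adjusted p = 0.000121). Veph1, a membrane-binding protein with a pleckstrin homology domain, rose by 1.34 ± 0.27, Npl, a lyase of sialic acid, by 1.31 ± 0.28, and C1galt1, the synthase of core 1 O-glycans, by 1.23 ± 0.23. The calls of Veph1 and Npl were lost without KO replicate 3 (1.10 and 1.21) and without WT replicate 3 and 1 in turn (1.24 and 1.23). C1galt1 held in every fit without 1 array, and its 2 other probe sets were called as well.

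H2-K1 and H2-D1, heavy chains of the class I molecules that present peptides to T cells, rose in KO. H2-K1 read 12.61, 12.56 and 12.95 in KO, against 11.51, 11.59 and 11.72 in WT (1.10 ± 0.13 SE; 2.14-fold; limma adjusted p = 2.38e-06). H2-D1 read 13.06, 13.04 and 13.36 in KO, against 12.11, 12.08 and 12.19 in WT (1.03 ± 0.12 SE; 2.04-fold; limma adjusted p = 1.86e-06). All KO values of both genes lay above all WT values. Class I genes are near-identical in sequence, so the probes can read each other's transcripts and the assignment to 1 of them is uncertain. The 3 other probe sets of H2-K1 were not called. Of the 10 measured class I genes these 2 were called higher, and B2m, the shared light chain, averaged 12.84 ± 0.20 in KO and 12.75 ± 0.16 in WT (SD, n = 3 each). Tap1, the peptide transporter, differed by −0.52 ± 0.17 (limma adjusted p = 0.185). Class II gave 0 calls among the 6 measured genes of its list. Outside it H2-Ea, the alpha chain of the I-E molecule, read 9.02, 9.97 and 9.18 in KO and 8.35, 8.05 and 8.35 in WT (1.14 ± 0.27 SE; limma adjusted p = 0.0387), while a second probe set of the gene differed by 3.13 ± 0.37. Its call at the brighter probe set was lost without KO replicate 2 or 3 or any 1 WT replicate (0.85 to 1.24). Of 11 interferon response genes 0 were called and 2 were higher at an unadjusted p under 0.05, Oasl2 at 0.74 ± 0.24 and Ifit1 at 0.68 ± 0.27.

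Wnt2 and Lyve1, known from lung mesenchyme and lymphatic vessels, were also among the rises. Wnt2, a mesenchymal ligand needed for lung formation, read 11.02, 11.02 and 11.07 in KO, against 10.13, 10.12 and 9.95 in WT. The rise was 0.97 ± 0.19 (SE; limma adjusted p = 0.00698), and 0.92 with an adjusted p of 0.0545 without WT replicate 3. It was the only call of a fibroblast list of 10 genes whose median was 0.100. Of these 6 lay above 0 and 4 below, from −1.84 to 0.97. Lyve1, the hyaluronan receptor of lymphatic endothelium and of some macrophages, read 12.46, 12.42 and 12.76 in KO and 11.78, 11.61 and 11.61 in WT (0.88 ± 0.11 SE; limma adjusted p = 1.49e-05). In P4 hyperoxia it differed by −0.27 and was not called. Jag1, a Notch ligand, rose by 0.50 ± 0.09 and Fzd8, a Wnt receptor, by 0.71 ± 0.09, and both were chosen for mention after their values were seen. The other named rises were Pxylp1 (1.00 ± 0.18), a phosphatase of proteoglycan linkers, Sirpb1a (0.96 ± 0.19), a receptor of myeloid cells, Rpl14 (0.97 ± 0.23), a ribosomal protein, and St6galnac5 (0.91 ± 0.23), a sialyltransferase. The calls were lost without WT replicate 1 for Pxylp1 (0.84), without WT replicate 3 for Sirpb1a (0.89), without any array but KO replicate 2 for Rpl14 (0.92 to 1.01) and without any 1 of the 6 for St6galnac5 (0.75 to 1.00).

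Several called genes lay near each other on their chromosomes. Among the 50 measured genes on either side of Nfe2l2 on chromosome 2, in the gene order of GRCm38.p6, 4 of 100 were called (4%, beside 0.726% of all genes). These were Rbm45, Itga6, an integrin of epithelium and endothelium (0.84 ± 0.17), Nckap1, a subunit of the WAVE complex (0.41 ± 0.07), and Dnajc10, a reductase of the endoplasmic reticulum (−0.48 ± 0.08). The call of Itga6 was lost without KO replicate 2, WT replicate 1 or WT replicate 3 (0.67 to 0.83). Around Trim12c on chromosome 7, 6 of 100 were called. With 100 genes on either side 9 of 200 were called, Lyve1 among them. Trim68, a ubiquitin ligase, read 6.30, 6.77 and 6.66 in KO and 5.14, 5.45 and 5.20 in WT, a rise of 1.31 ± 0.17 (SE; limma adjusted p = 1.67e-05). Trim34a read 7.03, 5.88 and 5.29 in KO and 7.57, 7.66 and 7.60 in WT, a difference of −1.55 ± 0.24 (SE; limma adjusted p = 0.000372), with a KO spread far wider than that of WT. Trim5 fell by 1.09 on the log2 scale (SE 0.18). KO replicate 1 was the KO array nearest to WT for Trim12c, Trim68, Trim34a, Trim5 and Rrp8, a methyltransferase of ribosomal RNA (7.88, 6.82 and 6.94 in KO; 8.15, 8.39 and 8.18 in WT). A dimmer probe set of Trim34a differed by 0.52 ± 0.14 the other way and was not called, and the Trim genes here are close paralogs, so their single assignments are uncertain.

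Chromosome 17 held 19 called genes of 834 measured (2.28%), the largest share of any chromosome with a called gene, and 12 of the 19 were lower. Around H2-K1, an anchor picked after the values were seen, 8 of 100 neighbours were called. The largest difference was that of D17H6S56E-5, which has no proper gene name, at −1.23 ± 0.18 (SE; limma adjusted p = 0.000151). It held without each array in turn. Besides H2-Ea the others included Ring1, a Polycomb subunit (−0.52 ± 0.11), Pfdn6, a prefoldin subunit (−0.54 ± 0.12), H2-Ob, a modulator of class II loading (−0.51 ± 0.12), and Ndufa7, a subunit of complex I (−0.35 ± 0.08). The calls of Ring1, Pfdn6, H2-Ob and Ndufa7 were lost without KO replicate 2 or WT replicate 3, among others, at −0.40 to −0.52 for Ring1, −0.44 to −0.56 for Pfdn6, −0.45 to −0.55 for H2-Ob and −0.29 to −0.36 for Ndufa7. Chromosomes 2, 7, 9 and 6 held 16, 14, 14 and 13 called genes, and chromosomes 10, 13, 14 and X held 0. Whether the KO and WT pups carried different alleles near these genes was not tested.

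**Figure D4:**
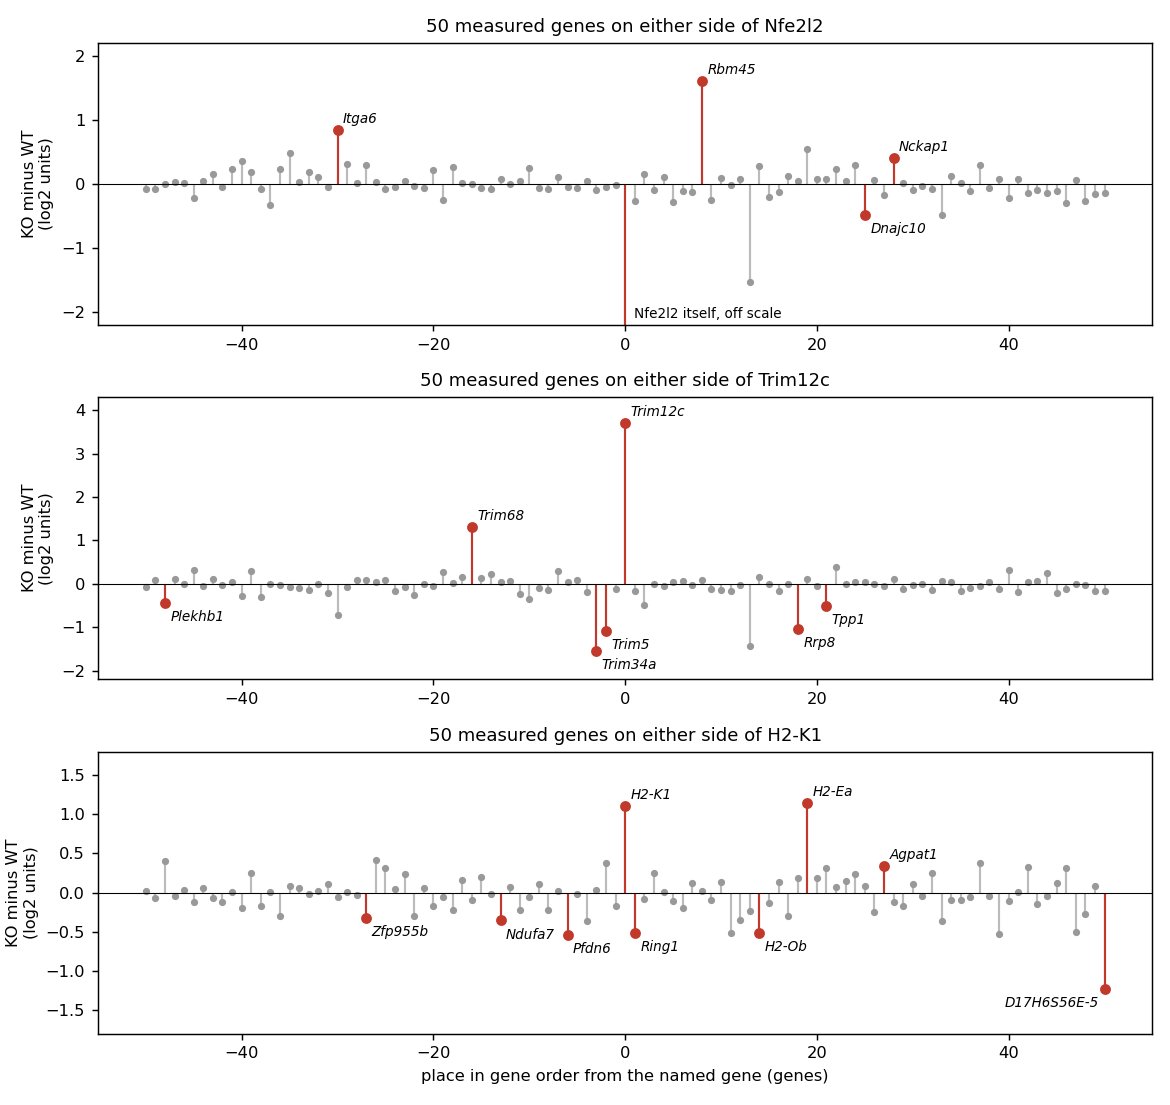
KO minus WT difference (vertical axes, log2 units) of the 50 measured genes on either side of Nfe2l2, Trim12c and H2-K1, by place in gene order (horizontal axis, in genes). Called genes are red and named, 4, 6 and 8 among the neighbours, and others are grey. The grey values near −1.5 are Ttn, a muscle gene, and Hpx, a liver gene, both highest in WT replicate 3.

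The question of whether these differences were particular to P4 was put to the 18 air arrays of P1, P2 and P3, none of which entered the P4 contrast. In those, 5316 genes (29.2%; 16.4% higher and 12.9% lower) were called for the mean genotype difference. Of the 132 P4 genes 131 had the same sign there and 120 (90.9% of the P4 genes, 2.26% of those 5316) had the same sign and were called, 50 of the 54 higher and 70 of the 78 lower. None was called the other way. At P1, P2 and P3 taken singly 116 of the 132 had the P4 sign at each age, and in the P4 hyperoxia groups 121 did. The fit shares its estimate of spread between these contrasts, but no array.

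Among the enzymes at the earlier ages, Gsta3 differed by −2.29 at P1, −2.57 at P2 and −2.27 at P3, next to −2.41 at P4. Aox3 differed by −1.82, −1.63 and −1.47 at P1 to P3 and by −1.19 at P4, and Gpx2 by −1.13, −1.24 and −1.06 at P1 to P3 and by −0.83 at P4. Over the mean of P1 to P3, 31 of the 57 enzyme genes were called lower and 2 higher, and the lower ones held Nqo1 at −0.44 (limma adjusted p = 0.000903) and Txnrd1 at −0.53 (limma adjusted p = 1.55e-08), neither called at P4. Nqo1 differed by −0.71 at P1, 0.19 at P2 and −0.79 at P3. That mean rests on 18 arrays and the P4 difference on 6. Trim12c (3.86, 4.32 and 3.42 at P1 to P3), Rbm45 (1.91, 2.12 and 1.86) and Lypd6 (−2.32, −2.17 and −2.25) kept close to their P4 values. In the P4 lungs in hyperoxia, whose arrays are all different, Gpx2 differed by −3.18, Gclc by −1.89, Gstm1 by −1.66 and Gsta3 by −2.76 between KO and WT. The difference between those values and the P4 values in air was not tested here.

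**Figure D5:**
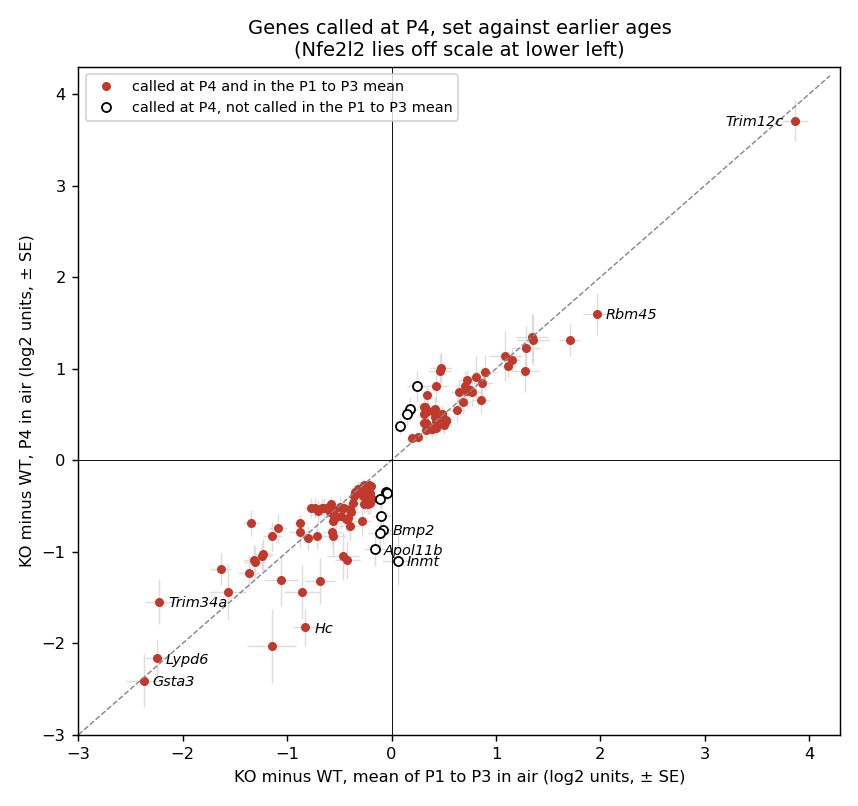
KO minus WT difference of the 132 genes called at P4 in air (vertical axis) against the mean difference at P1 to P3 in air (horizontal axis), both in log2 units with bars of ± SE. Filled points were called in both and open points at P4 but not in the P1 to P3 mean. The dashed line marks equal values, 131 of the 132 points lie in the quadrants of equal sign, and Inmt is the exception.

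The 12 genes called at P4 but not in the mean of P1 to P3 were Zg16, Pde3a, St7 and Edrf1, higher in KO, and Mapkapk3, Ifi30, Ccdc30, Dock8, Bmp2, Clec4n, Apol11b and Inmt, lower in KO. Bmp2, a bone morphogenetic protein of endothelium and epithelium, read 8.11, 7.69 and 7.94 in KO and 8.48, 9.05 and 8.49 in WT at P4 (−0.76 ± 0.15 SE; limma adjusted p = 0.00542), and differed by −0.05, −0.32 and 0.14 at P1, P2 and P3. Apol11b, a member of the apolipoprotein L family, read 4.76, 4.44 and 4.84 in KO, against 5.51, 6.15 and 5.30 in WT. Without WT replicate 2 both calls were lost, at −0.57 for Bmp2 and −0.72 for Apol11b. Inmt, a methyltransferase abundant in lung, read 9.01, 8.49 and 8.31 in KO and 9.57, 9.74 and 9.80 in WT at P4 (−1.10 ± 0.27 SE; limma adjusted p = 0.0422). It differed by 0.06 in the mean of P1 to P3, with a range of −0.58 at P1 to 0.48 at P2, and its P4 call was lost in 5 of the 6 fits without 1 array (−0.95 to −1.16).

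A call at P4 and none earlier does not show a change with age, so the change itself was tested. For the P4 difference minus the mean of P1 to P3, 1 gene was called (0.00550% of genes), 1500011B03Rik, which was not called at P4 itself, while 1542 genes passed an unadjusted p of 0.05 and other fits called 0 to 304. None of the 12 genes above was called in it (limma adjusted p of 0.286 for Bmp2 and 0.348 for Inmt). For P4 minus P3, the age just before, 679 genes were called (3.73%; 425 with a higher and 254 with a lower difference at P4). Among the 132 these were Trip4, Ifi30, Emilin1, Fgfbp1, Bmp2, Hdc and Inmt. Hdc, which makes histamine, read 9.32, 9.56 and 9.54 in KO and 10.42, 10.32 and 10.02 in WT at P4, a difference of −0.78 ± 0.18 (SE), next to −2.01 at P3, −0.66 at P2 and 0.04 at P1. Its P4 call was lost without KO replicate 1 or 3 or WT replicate 1 or 2 (−0.69 to −0.81). Emilin1, a glycoprotein of elastic fibres, fell by 0.52 on the log2 scale at P4 (SE 0.09; limma adjusted p = 0.00277), next to −0.999 at P3, −0.74 at P2 and −0.26 at P1. Fgfbp1, a carrier of fibroblast growth factors, differed by −0.67 ± 0.16 at P4 and by 0.21 at P3, and its P4 call was lost without any array but KO replicate 3 (−0.58 to −0.70).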

How the data were processed

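Whole-lung RNA was hybridised as biotin-labelled cRNA to Affymetrix 3′ arrays, 1 mouse per array, per the labels' protocols. The values are log2 expression levels deposited by the authors in 1 table of 42 arrays. GCOS and RMA are the tools listed in the submitters' processing notes (versions not given in the sources used here). No rescaling was added. Array data hold no read depth, and the number of pups limits the precision.

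Of 45101 probe sets, 34958 named 1 gene symbol, 932 several and 9211 none. Each of 18194 genes took the probe set of highest mean over the 42 arrays, with no filter on low levels. A symbol matched the GRCm38.p6 gene table for 18033 genes. limma 3.58.1 in R 4.3.3 fitted means of 14 groups (28 residual degrees of freedom), so groups share one estimate of spread. Tests are two-sided and moderated, with Benjamini-Hochberg adjustment over all 18194 genes and calls at 0.05. Named genes were the 15 largest called differences each way among genes with a proper name, called list members (or the 2 of smallest p), a fixed set with Nfe2l2 and Nqo1, and called genes by the age test. Other genes named were chosen after their values were seen. The comparison, the gene lists and the tests were chosen with earlier results of these data known. Scores of lists average, over a list's genes, each array's distance from the gene's 42-array mean.

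On simulated data the fit recovered 62.7%, 89.6% and 100% of genes shifted by 0.5, 1 and 2 log2 units. The set held 18194 genes, shifted ones included, and gave 11 false calls. Recovery on the measured arrays, some with transcripts of other organs and with sexes not balanced, was not tested. The labels do not say whether pups shared a litter, so p-values measure the spread between these pups. Alternatives were loess scaling, array weights, an intensity trend, a filter on dim genes, other probe set rules, fewer arrays in the fit, a replicate block, covariates and leaving out arrays.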

Additional observations from a re-analysis of the deposited data

Results flagged for a closer look

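For 9 of the 115 followed genes the KO minus WT difference at P4 differed from that at P3 by the interaction test of the fit (limma adjusted p under 0.05 over all genes). Over all genes 679 of 18194 (3.73%) did so. Lower at P4 than at P3 were the differences of Per1, a clock gene, by −2.46 (−0.15 at P4, 2.31 at P3; adjusted p = 0.000595), Errfi1, a feedback inhibitor of EGFR, by −1.43 (−0.48 and 0.95), Inmt by −1.37 (−1.10 and 0.27), Cdkn1a, a cell cycle inhibitor, by −1.06 (−0.13 and 0.93), Atf3, a stress-induced transcription factor, by −1.04 (−0.45 and 0.60) and Sftpd, surfactant protein D, by −0.66 (0.17 and 0.83). Higher at P4 than at P3 were those of Rtkn2, a gene of alveolar type 1 cells, by 1.62 (0.42 at P4, −1.20 at P3), Oasl2, an interferon-induced gene, by 1.51 (0.74 and −0.77) and Hdc by 1.23 (−0.78 and −2.01). Of the 9 genes, Inmt and Hdc were called at P4.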

How the results depend on the processing

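The P4 count was 132 genes. It was 258 with loess scaling, 944 with array weights (63.9% higher in KO, with KO replicate 2 weighted 0.336), 219 with every probe set tested, 2096 at an unadjusted p under 0.05, 29 with a 2-fold minimum and 23 without WT replicates 1 and 3 (chosen after seeing the data, 22 shared). Leaving out 1 array gave 61 to 129. With a sex gene score as covariate 98 were called, 88 of them shared. With only the arrays of the contrast in the fit 195 were called, 74 of them shared and 24.1% higher in KO. With organ scores as covariates 119 were called, 81 of them shared and 25.2% higher. With only the 24 air arrays 91 were called, 77 of them shared. The mean of P1 to P3 had 3360 called genes with scores of other organs as covariates and 4410 to 5598 without 1 array. The difference of P4 from that mean had 304 with array weights, 3 with organ scores and 0 with averaged probe sets, every probe set, only the contrast's arrays, only air arrays or the sex score, and 0 to 22 without 1 array. The difference of P4 from P3 had 1097 with loess, 2804 with array weights, 315 in air arrays alone and 353 with organ scores, and 353 to 803 without 1 array. Within 25 genes of Nfe2l2 and H2-K1, 2 and 5 neighbours were called, and within 100 of H2-K1, 13. Of 37 called genes followed, 7 kept their call in every alternative. Of 78 uncalled genes followed, 22 were called under at least 1, among them Txnrd1, Me1, Taldo1, Marco, Cfap126 and Scgb3a1, each with array weights. The causes of these changes were not tested.

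Signs turned at P4 with array weights for Gclm (0.0036). With averaged probe sets they turned for Txn1 (0.23), Pdgfrb (0.030), Myh1 (0.020) and Eln (0.12). On the next brightest probe set they turned for Trim34a (0.52), Txn1 (0.59), Mcm6 (−0.050), Eng (−0.027), Pdgfrb (0.23), Myh1 (0.043), Gclm (0.068), Srxn1 (0.091) and Eln (0.31). With organ scores they turned for Bub1b (−0.27), Plk1 (−0.20), Mcm6 (−0.034), Rrm1 (−0.069), Krt15 (0.20), Eln (0.19) and Per1 (0.19). Per1 was −0.43 without WT replicate 2, 0.06 without WT replicate 1, 0.10 without KO replicate 2 and 0.40 without WT replicates 1 and 3. In the mean of P1 to P3 they turned for Eng (−0.033) with averaged probe sets, and on the next brightest for Nfe2l2 (0.22), Trim34a (0.53), Mgst1 (0.076), Mgst3 (0.011), Hmgcs1 (0.052), Eng (−0.25) and Pdgfrb (0.22). Rag1 was −0.26 there with organ scores.

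Deviations of same-numbered KO and WT arrays correlated at 0.132, −0.176 and 0.173, and those of differently numbered arrays at −0.273 to 0.287. Taken within groups of 3, these values cannot settle whether replicate numbers pair the samples. With the replicate number as a block 162 genes were called, 131 of them shared. Groups of 3 pups, sexes that were not balanced and organ transcripts in WT replicates 1 and 3 limit all counts.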

Other observations

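Called genes outside the lists, chosen after their values were seen, included Slc46a1, a folate transporter (−0.82 ± 0.15 SE; limma adjusted p = 0.00204), whose call held without each array in turn, and Asns, asparagine synthetase (−0.61), whose call was lost without any array but KO replicate 3 (−0.53 to −0.65). Of 10 thymocyte genes none was called. Their score was 0.06, 0.57 and 0.45 in KO and −0.32, −0.42 and 0.16 in WT, beside a median of −0.24 over the 42 arrays. Rag1, a recombinase of developing lymphocytes, read 7.03, 8.33 and 8.48 in KO and 4.78, 4.25 and 6.86 in WT (limma adjusted p = 0.153).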
